A study of Mus musculus with 10 samples.

Results

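The question addressed here was whether FoxO6 changed the rate at which each gene rose or fell while mouse fibroblasts were reprogrammed. It was asked with all 10 of the 10 RNA-seq libraries of the series, and 12139 of the 48476 genes of the count table were expressed well enough to be tested. Mouse embryonic fibroblasts (MEFs) from E13.5 embryos of the CBA/CaJ X C57BL/6J cross carried retroviral Oct4, Klf4 and Sox2 (OKS) in both arms. The viruses came from PlatE packaging cells, and the infected cells were then kept in iCD1 reprogramming medium. The control arm, OKS+DR, also received the red fluorescent protein DsRed, and the OKS+FoxO6 arm received FoxO6 in its place. Both arms were sequenced on days 0, 1, 3, 5 and 7, a single library being made for every day of an arm. The 5 libraries of an arm may come from 1 infected culture, so all p-values below measure the spread of these libraries around a fitted course and not the spread between infections.

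During reprogramming, fibroblasts shut down mesenchymal genes, gain epithelial genes in the mesenchymal to epithelial transition and later switch on the endogenous pluripotency network. FoxO proteins are forkhead transcription factors, and they are known for stress resistance, cell cycle arrest and metabolic control. A slope is the change of a gene per day on the log2 scale, fitted as a straight line through the 5 days of an arm. The product term is the slope in OKS+FoxO6 minus the slope in OKS+DR. A gene whose slope was at least 0.1 log2 per day in OKS+DR and under that in OKS+FoxO6 is called lost, and the opposite case gained. Slopes of at least that size in both arms are called reversed when their signs differ, and steeper or shallower when they do not.

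Expected counts summed to between 1208379 and 2225750 per library, so low genes rest on few reads. The log2 total count itself had a slope of 0.0584 per day in OKS+DR and -0.035 in OKS+FoxO6. Foxo6 (ENSMUSG00000052135) checked the arms, with at most 4 reads in each OKS+DR library and a TPM (transcript abundance scaled to the same sum in every library) of 1017, 1325, 1356, 1267 and 762.1 at days 0, 1, 3, 5 and 7 in OKS+FoxO6. All values listed in fives below follow this order of days. Its product term was -0.052, and its level in OKS+FoxO6 was lowest at day 7. All 14 MEF markers passed the filter on low counts, and 11 fell in OKS+DR and 7 in OKS+FoxO6 at an adjusted p under 0.05 (edgeR), against 6.08% and 4.83% of all genes. Of 12 endothelial markers 3 passed the filter and of 14 macrophage markers 2 did. The endothelial list summed to between 57 and 68.1 TPM in OKS+DR and between 62 and 149 in OKS+FoxO6, and within it Tek reached 104 TPM while Pecam1 and Cdh5 reached at most 5.73 and 1.24. The macrophage list summed to between 19.8 and 97.2 TPM in OKS+DR and between 33.6 and 55.7 in OKS+FoxO6, and Cx3cr1 and C1qc were listed at 0 in every library. In bulk RNA, fewer cells of a type and less RNA per cell cannot be told apart.

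No gene had a slope that differed between the arms at an adjusted p under 0.05 (0 of 12139, 0%) in edgeR's quasi-likelihood test of the product term with straight lines. The smallest adjusted p was 0.129, for Emb. At an unadjusted p under 0.05 there were 1030 genes (8.49%), with a higher slope in OKS+FoxO6 for 530 (4.37%) and a lower slope for 500 (4.12%). DESeq2's Wald test of the same term passed 29 genes, 15 higher and 14 lower, and limma on log2(TPM + 1) passed 0. Of the 1030 genes, 358 were lost, 258 gained, 131 reversed, 103 shallower and 30 steeper, and 150 had small slopes in both arms. Among all tested genes the counts were 1819 lost, 1687 gained, 271 reversed, 1444 shallower and 1246 steeper.

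A straight line leaves large residuals for genes that peak at day 3 or 5 in both arms. An alternative fit therefore gave each day its own level, shared by both arms, and tested the same product term on top of it. It left 3 residual degrees of freedom against 6 and lowered the common dispersion from 0.0621 to 0.021. With this shared day term 212 genes passed (1.75%), 134 with a higher slope in OKS+FoxO6 (1.1%) and 78 with a lower one (0.643%). All 212 had the same sign without it. Leaving out day 7 of both arms gave 91 genes and leaving out day 0 gave 123. By the slopes of the straight lines, 71 of them were lost, 48 reversed, 37 gained, 31 shallower, 22 steeper and 3 small. These counts depend on the limit set for a slope: at 0.2 in place of 0.1 log2 per day, 80 were lost, 13 reversed, 27 gained, 12 shallower, 18 steeper and 62 small. The genes described from this fit were chosen after their values were seen, and none of them passed the test with straight lines.

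Within each arm, many genes moved over the days. In OKS+DR 707 genes rose over the days (5.82%) and 738 fell (6.08%), and in OKS+FoxO6 585 rose (4.82%) and 586 fell (4.83%). The 707 genes that rose in OKS+DR had a median slope of 0.416 there and 0.244 in OKS+FoxO6, and 310 of them (43.8%) also rose in OKS+FoxO6. For the 738 that fell in OKS+DR the medians were -0.288 and -0.198, and 334 (45.3%) also fell in OKS+FoxO6. The 585 genes that rose in OKS+FoxO6 had a median of 0.397 there and 0.341 in OKS+DR, and the 586 that fell had -0.289 and -0.23. In each of the 4 sets the arm in which the genes were picked had the larger median, which the picking itself favours. Of the genes that rose in OKS+DR, 44 had a slope of the opposite sign in OKS+FoxO6, and 2 of those that fell in OKS+DR passed as rising there. These totals depended on single libraries. Against 1171 genes with a slope in OKS+FoxO6 there were 175 without its day 0 library, 213 without day 7, 667 without day 1 and 726 without day 5. Against 1445 in OKS+DR there were 700 without its day 0 library, 735 without day 5 and 805 without day 1.

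**Figure D1:**
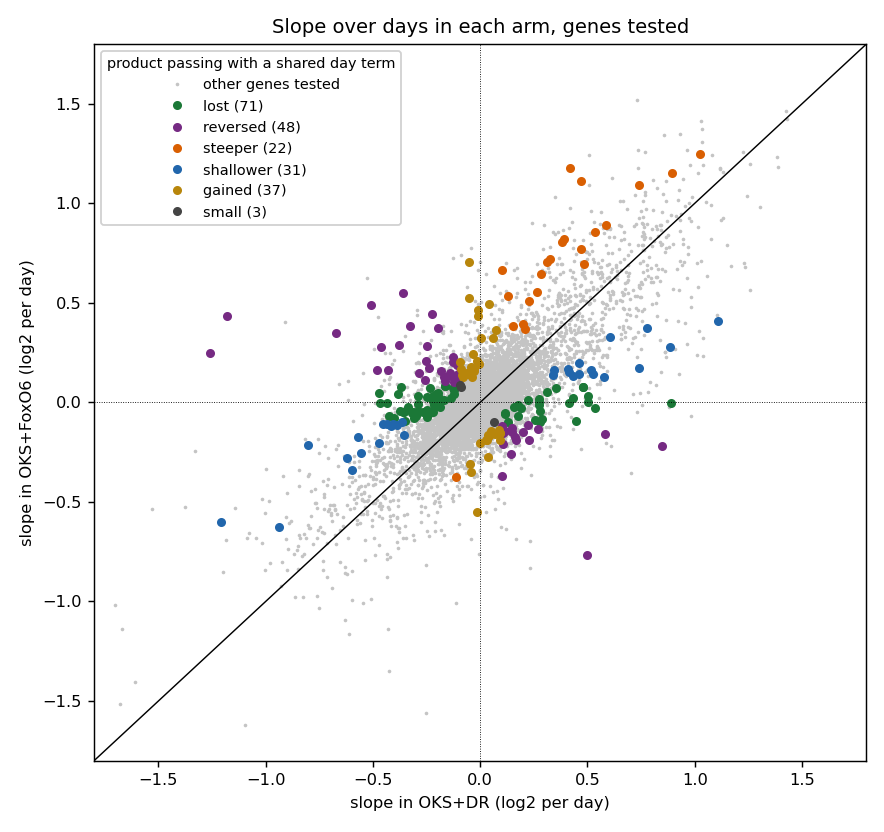
Each point is 1 of the 12139 genes tested, with its slope over days in OKS+DR on the x axis and in OKS+FoxO6 on the y axis, both in log2 per day, and colours mark the slope classes of the 212 genes whose product term passed with the shared day term. Grey points lie along the line of equal slopes, the 71 lost genes along the horizontal zero line, and 9 genes beyond 1.8 log2 per day are not drawn.

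Some fibroblast and matrix genes had a downward slope in OKS+DR that was lost in OKS+FoxO6, while others had similar slopes in both arms. Col1a1, for example, had slopes of -0.55 and -0.49, and Sparc -0.34 and -0.37. Col1a2 (ENSMUSG00000029661) codes for a chain of type I collagen. Its TPM was 1615, 1538, 1255, 374 and 262 in OKS+DR and 1336, 1048, 1444, 1119 and 758 in OKS+FoxO6. The drop in OKS+DR came between days 3 and 5 and had no match in OKS+FoxO6, where the day 7 library was the lowest. Its slope was -0.43 ± 0.054 (SE) in OKS+DR and -0.068 ± 0.051 in OKS+FoxO6. The product term of 0.36 had an adjusted p of 0.265 in edgeR's quasi-likelihood test and of 0.0016 with the shared day term. Dcn, the proteoglycan decorin, had 95.8, 113, 41.2, 37.2 and 30.9 TPM in OKS+DR and 128, 168, 125, 123 and 107 in OKS+FoxO6, so the arms drew apart from day 3 on. Mmp2, a gelatinase, had 93.9, 98.1, 102, 85.97 and 41.8 TPM in OKS+DR against 127, 116, 126, 179 and 151 in OKS+FoxO6. Its slope of -0.17 in OKS+DR did not pass (adjusted p = 0.0504, edgeR), and most of the drop there was in the day 7 library.

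Several genes outside the matrix showed the same form. Dusp14, a dual specificity phosphatase, declined steadily in OKS+DR, with 383, 294, 173, 81.2 and 69.3 TPM, while OKS+FoxO6 began lower and levelled off, with 206, 157, 142, 139 and 134 TPM. The slopes were -0.36 ± 0.042 and -0.05 ± 0.04 log2 per day, and the adjusted p of the product term was 0.239 (edgeR) or 0.00326 with the shared day term. Slco2a1, a prostaglandin transporter, had 57.7, 82.1, 60.6, 29.2 and 11.5 TPM in OKS+DR and 43.8, 35.2, 40.2, 65.3 and 44.8 in OKS+FoxO6. Tmem35a, which acts as a chaperone of acetylcholine receptors, peaked at day 1 in both arms with 118, 249, 129, 52.7 and 23.3 TPM in OKS+DR and 60.2, 166, 144, 115 and 86.6 in OKS+FoxO6. Its slope in OKS+FoxO6 was -0.0019 log2 per day, although its TPM fell from day 1 on in that arm too. The neurotrophin gene Bdnf had slopes of -0.35 in OKS+DR and -0.092 in OKS+FoxO6, and the X-linked gene Cxx1b had -0.22 and 0.033. Some genes kept a slope just past the limit of 0.1 in OKS+FoxO6 and count as shallower. Ndn, which codes for the growth suppressor necdin, stood at -0.39 and -0.11, and Ctsc, a lysosomal cathepsin, at -0.41 and -0.12.

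Other slopes were lost as rises. Slc2a1 codes for the glucose transporter GLUT1. Its TPM was 49.9, 38.4, 47.5, 197 and 536 in OKS+DR and 85.8, 41.6, 51.5, 57.1 and 79.8 in OKS+FoxO6, so the late climb of the control was missing. Slopes were 0.50 ± 0.081 and 0.031 ± 0.083 log2 per day. Noct, a circadian gene known as nocturnin, behaved alike, with 26.6, 28.2, 23.5, 73.2 and 125 TPM in OKS+DR and 33.8, 29.03, 22.8, 35.1 and 24.2 in OKS+FoxO6. Up to day 3 the arms overlapped for Noct, and they parted at days 5 and 7. Gli3, a transcription factor of the Hedgehog pathway, had 12.2, 20.2, 35.7, 54.3 and 53.5 TPM in OKS+DR and 19.8, 14.4, 18.3, 20.7 and 11.96 in OKS+FoxO6. Its fitted slope in OKS+FoxO6 was -0.00029 log2 per day against 0.28 in OKS+DR. Among the genes with the 10 smallest p-values for a lower slope were also Notch3, a Notch receptor, at 0.45 and -0.092, and Rif1, a factor of replication timing and DNA repair, at 0.27 and 0.018. D10Wsu102e was the first of these by p, at 0.48 and 0.078, with an adjusted p of 0.18 (edgeR). Its effective length was 123100 bases, against a median of 2607 for all genes tested. Peg10, an imprinted gene derived from a retrotransposon, rose to 229 TPM at day 7 in OKS+DR and stood at 30.2 in OKS+FoxO6.

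The smallest p of all genes belonged to a reversed slope. Emb (ENSMUSG00000021728), at chromosome 13 from 117208536 to 117274415 on GRCm38, codes for embigin, a partner protein of lactate transporters. It had 9.89, 10.9, 8.13, 2.66 and 1.88 TPM in OKS+DR and 16.2, 24.4, 34.2, 59.9 and 58.1 in OKS+FoxO6. Every OKS+FoxO6 library lay above every OKS+DR library, and the gap widened over the days. Slopes were -0.38 ± 0.072 and 0.29 ± 0.047, both past an adjusted p of 0.05 within their arm (0.00833 and 0.00629, edgeR), and the product term was 0.66, with a 95% interval of 0.47 to 0.85. Counts were low in the control, with 14, 18, 13, 4 and 4 reads. Scg5, a chaperone of neuroendocrine secretion, crossed over, with 142, 176, 133, 33.1 and 25.1 TPM in OKS+DR and 27.8, 36.1, 59.1, 56.9 and 57.4 in OKS+FoxO6. Its slope of -0.43 in OKS+DR passed the test (adjusted p = 0.00382, edgeR) and that of 0.16 in OKS+FoxO6 did not (0.157). Osbp2, an oxysterol binding protein, had 2.57, 3.51, 1.04, 0.49 and 0 TPM in OKS+DR and 13.2, 4.54, 14.8, 28.9 and 17.4 in OKS+FoxO6, the control being measured from at most 8 reads.

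Slc16a3 had the largest reversed slope toward a lower level among the named genes. It codes for MCT4, the lactate exporter of glycolytic cells. In OKS+DR it had 18.2, 8.59, 7.29, 50.96 and 101 TPM and in OKS+FoxO6 12.3, 1.33, 0.44, 3.48 and 1.81. The control first dipped and then climbed past its start, and OKS+FoxO6 stayed down from day 1, with 1 to 3 reads from day 1 on. The slope of 0.50 ± 0.14 in OKS+DR passed the test (adjusted p = 0.0401, edgeR) and that of -0.77 ± 0.26 in OKS+FoxO6 did not (0.0945). Igfbp2, which binds insulin-like growth factors, had 31.1, 9.54, 6.6, 77.3 and 296 TPM against 29.9, 12.7, 1.65, 5.31 and 16.1. Its slope of 0.58 in OKS+DR passed (adjusted p = 0.0428, edgeR) and that of -0.16 in OKS+FoxO6 did not (0.676). Ndrg1, a gene of the hypoxia and stress response, ended at 45.4 TPM in OKS+DR and at 12.98 in OKS+FoxO6 after starting at 20.5 and 30.9. Neither slope of Ndrg1 passed (adjusted p = 0.0921 and 0.177, edgeR). Kdr, the main receptor for vascular endothelial growth factor, went the other way, with 2.11, 10.8, 8.18, 1.74 and 1.23 TPM in OKS+DR and 1.7, 10.6, 44.6, 38.4 and 20.8 in OKS+FoxO6. Neither of its slopes, -0.33 and 0.38, passed (adjusted p = 0.406 and 0.264, edgeR). Kdr is 1 of the 12 endothelial markers. In OKS+FoxO6 Tek reached 104 TPM, Flt1 16.1, Egfl7 8.02 and Esam 3.21, while Pecam1, Cdh5 and Emcn were at no more than 1.24 and Cldn5 was listed at 0 in every library of that arm. The part of endothelial markers in the course of Kdr was not tested. Acta1, skeletal muscle actin, had a reversed slope that rested on 1 library: the OKS+FoxO6 values were 22.98, 13.2, 5.71, 5.57 and 236 TPM, and without day 7 its product term was -0.0467 with the shared day term.

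**Figure D2:**
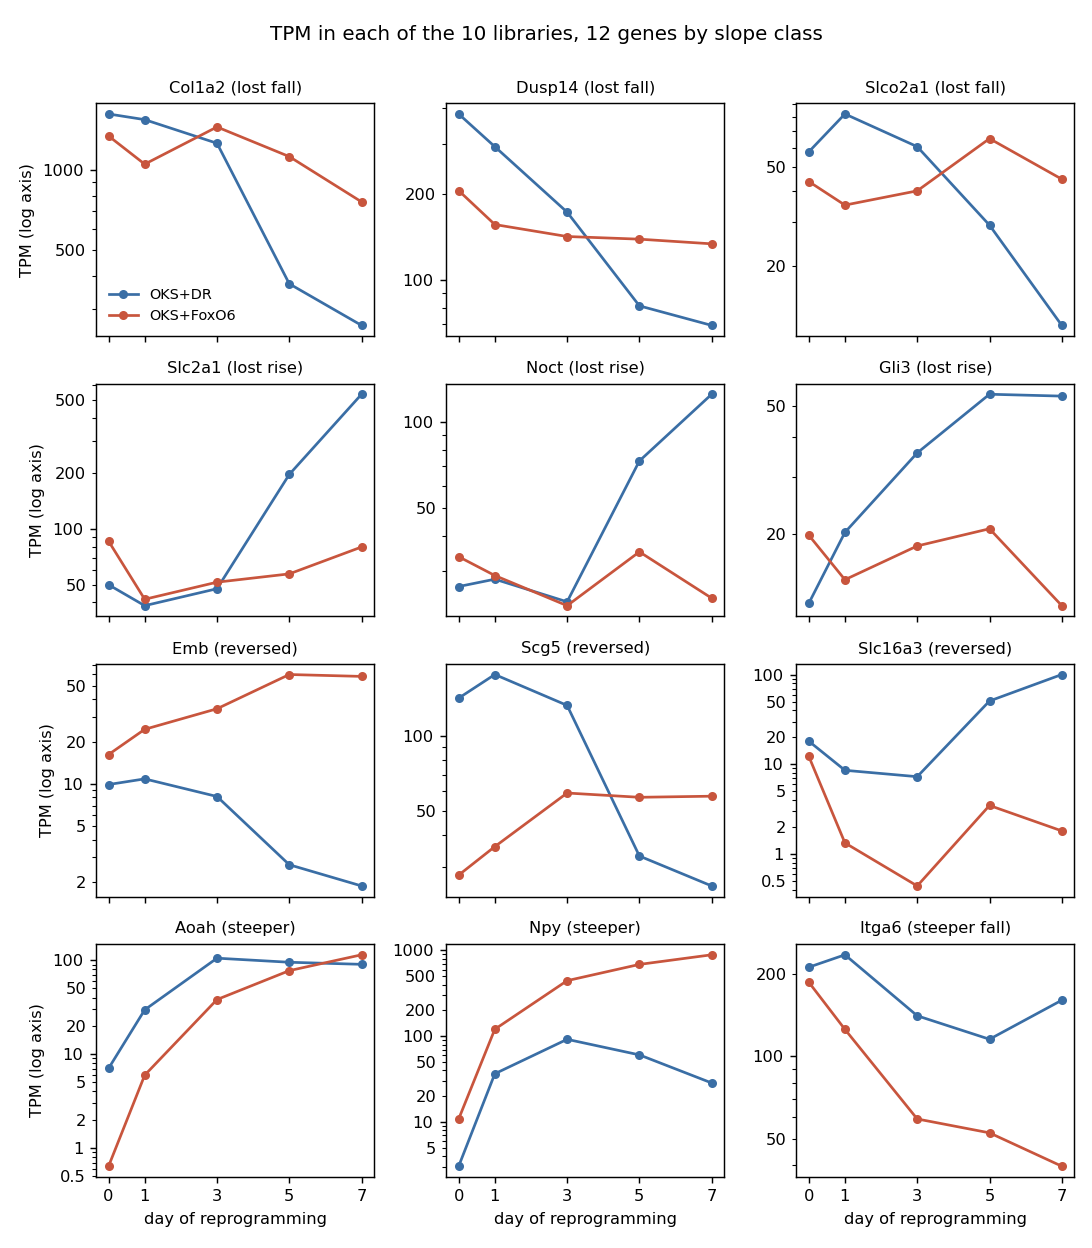
TPM (log axis) against the day of reprogramming for 12 genes in the 5 libraries of OKS+DR (blue) and the 5 of OKS+FoxO6 (red), 1 library per point, so there are no error bars. The upper rows show slopes that were lost, the third row slopes that reversed and the last row slopes that were steeper in OKS+FoxO6, such as Npy with 891 TPM at day 7 against 28.6.

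With the shared day term 22 genes had steeper slopes, 21 of them with a higher slope. This class depended on the days and the method. It held 2 genes without day 7, 9 without day 3 and 27 without day 0. With the shared day term in limma's trend method it held 9, and in DESeq2 11. Aoah, an enzyme that inactivates bacterial endotoxin, had 7.05, 29.6, 105, 95.2 and 90.4 TPM in OKS+DR and 0.64, 5.97, 38.1, 77.5 and 114 in OKS+FoxO6. OKS+FoxO6 started lower and ended a little higher, with slopes of 0.81 against 0.38. Npy, which codes for neuropeptide Y, had 3.06, 36.6, 92.2, 60.7 and 28.6 TPM in OKS+DR and 10.9, 121, 445, 688 and 891 in OKS+FoxO6. Here the arms kept diverging, since the control turned down after day 3 and OKS+FoxO6 did not. Its slope was 0.67 ± 0.16 in OKS+FoxO6 and 0.10 ± 0.20 in OKS+DR. The slope in OKS+DR did not pass (adjusted p = 0.803, edgeR). It lay just past the limit of 0.1, under which Npy would count as gained. The adjusted p of the product term was 0.594 with straight lines (edgeR) and 0.00641 with the shared day term. L1td1, an RNA binding protein of pluripotent cells, had 17.3, 74.5, 203, 263 and 291 TPM in OKS+DR and 4.44, 10.7, 32.6, 80.5 and 112 in OKS+FoxO6, below the control on every day despite slopes of 0.70 and 0.48. Itga6, an integrin of laminin binding, was the 1 steeper fall, with 212, 235, 141, 115 and 160.3 TPM in OKS+DR and 187, 125, 59.1, 52.6 and 39.7 in OKS+FoxO6.

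Tgtp1, Oasl2 and Oas3, which respond to interferon, were 3 of the 22 steeper genes, and their values depended on the method. They come from 2 lists of 35 and 34 tested genes, in which H2-Q7 was the other gene that passed with the shared day term, as lower. Of all genes 1.1% passed that fit as higher and 0.643% as lower. Tgtp1, an interferon induced GTPase, had 1.12, 3.35, 366, 685 and 262 TPM in OKS+DR and 0, 0, 9.92, 91.9 and 99.1 in OKS+FoxO6. The control was highest at day 5 and OKS+FoxO6 at day 7, and OKS+FoxO6 was listed at 0 at days 0 and 1. Its product term was 1.02 with the shared day term, 0.22 with straight lines and -0.00539 in limma's trend method with the shared day term, so the sign differed between methods. Reads may also be split with its near-identical copy Tgtp2. Oasl2 and Oas3, which belong to the oligoadenylate synthetase family that senses viral RNA, had product terms of 0.74 and 0.99 with the shared day term and 0.26 and 0.35 with straight lines. Without the OKS+DR library of day 7 the last pair became -0.313 and -0.387.

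Other slopes were shallower with FoxO6 or present there alone. Cmah, an enzyme of sialic acid synthesis, was the second gene by p with a lower slope, at 0.83, 1.84, 4.84, 22.4 and 62.3 TPM in OKS+DR and 2.04, 1.17, 2.2, 5.68 and 4.66 in OKS+FoxO6. It rose in both arms (0.88 and 0.28 log2 per day, adjusted p = 0.000137 and 0.0243, edgeR), and the product term of -0.60 had an adjusted p of 0.239. Slc38a6, an amino acid transporter, had slopes of 0.43 and 0.13. Igf2, the fetal growth factor, fell in both arms, from 1172 to 11.4 TPM in OKS+DR and from 1439 to 71.1 in OKS+FoxO6. Among gained slopes, Prim2, a subunit of DNA primase, had 36.4, 31.5, 35.8, 27.5 and 23 TPM in OKS+DR and 20.9, 27.9, 36.4, 49.5 and 51.8 in OKS+FoxO6. Ep400, a chromatin remodelling ATPase, had 46.2, 47.6, 81.02, 102 and 74.8 TPM in OKS+DR and 152, 188, 153, 107 and 39.98 in OKS+FoxO6, so that it began higher and ended lower with FoxO6. Ankrd28, a phosphatase scaffold, had slopes of 0.034 and -0.28. Vegfa, the ligand of Kdr, stood at 80.2 TPM at day 0 and 80.6 at day 7 in OKS+DR and went from 61.5 to 6.18 in OKS+FoxO6. Msc, a transcription repressor of the musculin family, showed a later peak with FoxO6, at 12.8, 159.7, 357, 156 and 36.7 TPM in OKS+DR and 2.16, 12.6, 39.6, 135 and 112 in OKS+FoxO6.

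The direction of the product term went with transcript length. Across genes, the product term and the effective length had a Spearman correlation of -0.338, a description over genes that are not independent. Among the shortest 25% of genes 72.4% had a higher slope in OKS+FoxO6, against 60.3%, 45.1% and 30.4% in the following groups of 25%. Genes with an unadjusted p under 0.05 had a median effective length of 1812 bases when higher and 4139 when lower, and the 212 genes had 2027 and 4737, against 2607 for all. With an offset for the length trend of each library the correlation was 0.001, and 263 genes passed with the shared day term, 189 higher and 74 lower. The length trend cannot be told apart from a property of single libraries, since each arm and day has only 1. Slc2a1, Col1a2, Emb, Scg5 and Slc16a3 still passed with the shared day term and this offset, and D10Wsu102e did not.

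**Figure D3:**
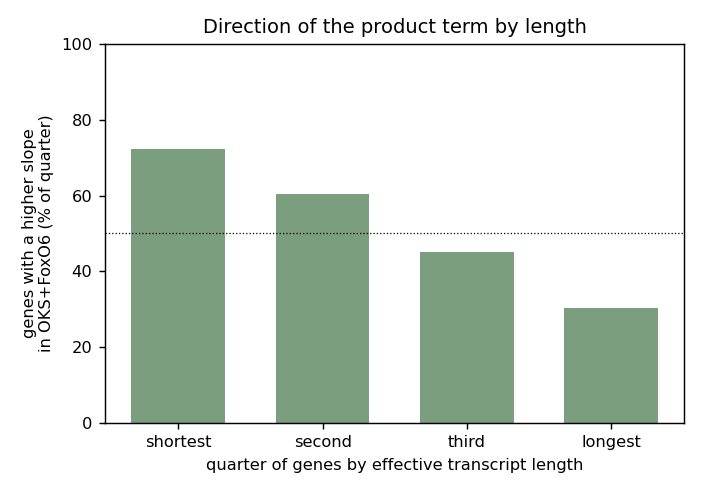
Share of genes with a higher slope in OKS+FoxO6 than in OKS+DR (percent, y axis) in each group of 25% of the 12139 genes ordered by effective transcript length (x axis), with a dotted line at 50%. The share falls from 72.4% in the shortest group to 30.4% in the longest.

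Genes of glycolysis mostly had lower slopes with FoxO6. Of the 22 genes of glycolysis and its transporters 4 had a higher slope in OKS+FoxO6, against 6319 of 12139 genes in all, and the median product term was -0.0867 against 0.0053. None passed with straight lines, and 6 had an unadjusted p under 0.05, all lower, against 4.12% of all genes. Slc16a3, Slc2a1 and Slc2a3 passed as lower with the shared day term, against 0.643% of all genes. Slc2a3, the transporter GLUT3, had 28.8, 30.9, 29.8, 46.1 and 182 TPM in OKS+DR and 14.4, 10.6, 10.03, 8.08 and 19.2 in OKS+FoxO6, highest at day 7 in both arms but far higher in the control. Hk2, which phosphorylates glucose, moved from 30.4 to 64.3 TPM in OKS+DR and from 38.7 to 18.9 in OKS+FoxO6. Aldoc and Pfkl, an aldolase and a phosphofructokinase, had slopes of 0.66 and 0.29 in OKS+DR and 0.39 and 0.13 in OKS+FoxO6. Gapdh, a glycolytic enzyme with a high level in all libraries, had a product term of 0.0048. The list kept a median below 0 in all 25 alternatives of the straight-line fit, from -0.1241 to -0.0507 among those with day in days, and without the OKS+DR library of day 7 it was -0.0507.

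Lysosomal genes leaned the other way. Of 46 members 43 (93.5%) had a higher slope in OKS+FoxO6, against 52.1% of all genes, with a median product term of 0.0913. At an unadjusted p under 0.05 there were 10, all higher, against 4.37% of all genes. In OKS+DR 8 of them fell and 1 rose, against 6.08% and 5.82% of all genes. In OKS+FoxO6 1 fell and 4 rose, against 4.83% and 4.82%. Ctsd, the protease cathepsin D, had 565, 601, 541, 338 and 290.4 TPM in OKS+DR and 817, 983, 1051, 938 and 828 in OKS+FoxO6. All 5 OKS+FoxO6 values lay above all 5 of the control, and the slope passed the test in OKS+DR (-0.17, adjusted p = 0.00835, edgeR) and not in OKS+FoxO6 (0.869). It passed with the shared day term, as did Cd63, a membrane protein of late endosomes, with 569, 469, 445, 336 and 325 TPM against 756, 751, 729, 734 and 843. Npc2 and Neu1, a cholesterol carrier and a sialidase of the lysosome, had product terms of 0.15 and 0.17. With the length offset 43 members were still higher and Ctsd passed, but Cd63 did not (adjusted p = 0.126, edgeR). Without the OKS+FoxO6 library of day 0 the median was 0.0606, and in limma on log2(TPM + 1) it was 0.0481. Nuclear genes of the respiratory chain gave a like count, 39 of 42 higher with a median of 0.0807, but they are short, at a median of 766 bases, and with the length offset 31 were higher and the median was 0.0177. Without the OKS+FoxO6 library of day 7 it was 0.0339, with 29 higher. Core autophagy genes stood near the background, with 25 of 43 higher and a median of 0.0236, which was 0.0069 without OKS+DR day 5 and 0.014 without OKS+FoxO6 day 5. Without day 5 of both arms that median turned to -0.0053.

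Antigen presentation genes mostly had a lower slope with FoxO6 in the straight-line fit. Of 35 tested genes of the interferon gamma response and antigen presentation, 26 rose in OKS+DR and 11 in OKS+FoxO6, against 5.82% and 4.82% of all genes. A higher slope in OKS+FoxO6 was found for 3, against 52.1% of all genes. The median slope was 0.7409 in OKS+DR and 0.5361 in OKS+FoxO6, and the median product term was -0.16. No member passed with straight lines, and 5 had an unadjusted p under 0.05, all lower, against 4.12% of all genes. B2m, the light chain of MHC class I, had 610.2, 658, 1942, 5504 and 4455 TPM in OKS+DR and 789, 1066, 1222, 1891 and 2768 in OKS+FoxO6. H2-T22, a class I gene outside the classical set, had 18.7, 28.7, 80.2, 249 and 197 TPM against 17.8, 27.6, 28.6, 36.9 and 68.99. H2-K1 and H2-D1, the classical heavy chains, stood at 2518 and 970.4 TPM at day 5 in OKS+DR, and at 299.9 and 218 in OKS+FoxO6. At day 7 they stood at 2273 and 868.2 in OKS+DR, and at 696.9 and 376.2 in OKS+FoxO6. H2-Q7 had slopes of 1.11 and 0.41, with the caution that class I genes share sequence and their reads can be split. With the shared day term 12 of the 35 had a higher slope and the median was -0.0708, so the count of directions depended on the fit. Summed TPM of the list was highest at day 5 in OKS+DR and at day 7 in OKS+FoxO6, and the median product term depended on single libraries. It was -0.5855 without the OKS+DR library of day 7, and -0.0287, -0.0478 and -0.0608 without those of days 0, 1 and 5. Without the OKS+FoxO6 library of day 7 it was -0.0969.

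Type I interferon genes had a median on the other side of 0, and the difference between the lists was not tested. Of 34 members 21 had a higher slope in OKS+FoxO6, the median product term was 0.05, and 9 rose in OKS+DR and 17 in OKS+FoxO6, against 5.82% and 4.82% of all genes. The direction rested on single libraries. Without OKS+DR day 7 none of the 34 was higher and the median was -0.2978, without OKS+FoxO6 day 7 it was 0.2323 with 30 higher, and without OKS+DR day 0 it was 0.2181 with 31 higher. Ifit2 alone had an unadjusted p under 0.05, against 8.49% of all genes, with slopes of 0.0022 and -0.25. The sum of TPM over the list reached 6602 at day 5 in OKS+DR and 4351 at day 7 in OKS+FoxO6, and the sign of the list's median changed in 8 of 25 alternatives. Promoters of both lists hold the letters of the interferon-stimulated response element, GAAANNGAA on either strand. The 300-base windows used here run from 250 bases before to 50 after a gene's start (RefSeq, GRCm38.p6). That core was present in 53.8% of 26 windows of the antigen presentation list and 62.5% of 24 of the type I list, against 7.01% of 9104 windows of tested genes. The windows of B2m and H2-T22, which were shallower with FoxO6, and of Oas3 are printed 5′ to 3′ to show where the core lies, with capitals marking it or its complement on the other strand. They are chr2:122147437-122147736 on the plus strand for B2m, chr17:36042693-36042992 on the minus strand for H2-T22 and chr5:120777610-120777909 on the minus strand for Oas3, whose 2 matches lie close together.
B2m: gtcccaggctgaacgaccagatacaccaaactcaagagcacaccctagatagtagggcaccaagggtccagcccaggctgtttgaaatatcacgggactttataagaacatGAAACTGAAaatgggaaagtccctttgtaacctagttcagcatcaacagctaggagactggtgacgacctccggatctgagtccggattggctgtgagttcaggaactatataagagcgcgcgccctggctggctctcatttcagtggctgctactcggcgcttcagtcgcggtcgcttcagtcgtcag
H2-T22: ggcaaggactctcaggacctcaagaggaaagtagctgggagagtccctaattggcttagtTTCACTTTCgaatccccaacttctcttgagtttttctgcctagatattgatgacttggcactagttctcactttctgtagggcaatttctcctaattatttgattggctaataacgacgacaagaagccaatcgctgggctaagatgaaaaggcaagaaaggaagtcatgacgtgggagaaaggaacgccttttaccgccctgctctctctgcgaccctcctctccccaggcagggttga
Oas3: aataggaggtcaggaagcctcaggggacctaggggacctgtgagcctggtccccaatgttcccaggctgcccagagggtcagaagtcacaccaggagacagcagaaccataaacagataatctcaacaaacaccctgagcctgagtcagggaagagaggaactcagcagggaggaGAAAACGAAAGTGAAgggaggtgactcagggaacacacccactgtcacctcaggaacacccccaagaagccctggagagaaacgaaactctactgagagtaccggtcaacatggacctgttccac

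**Figure D4:**
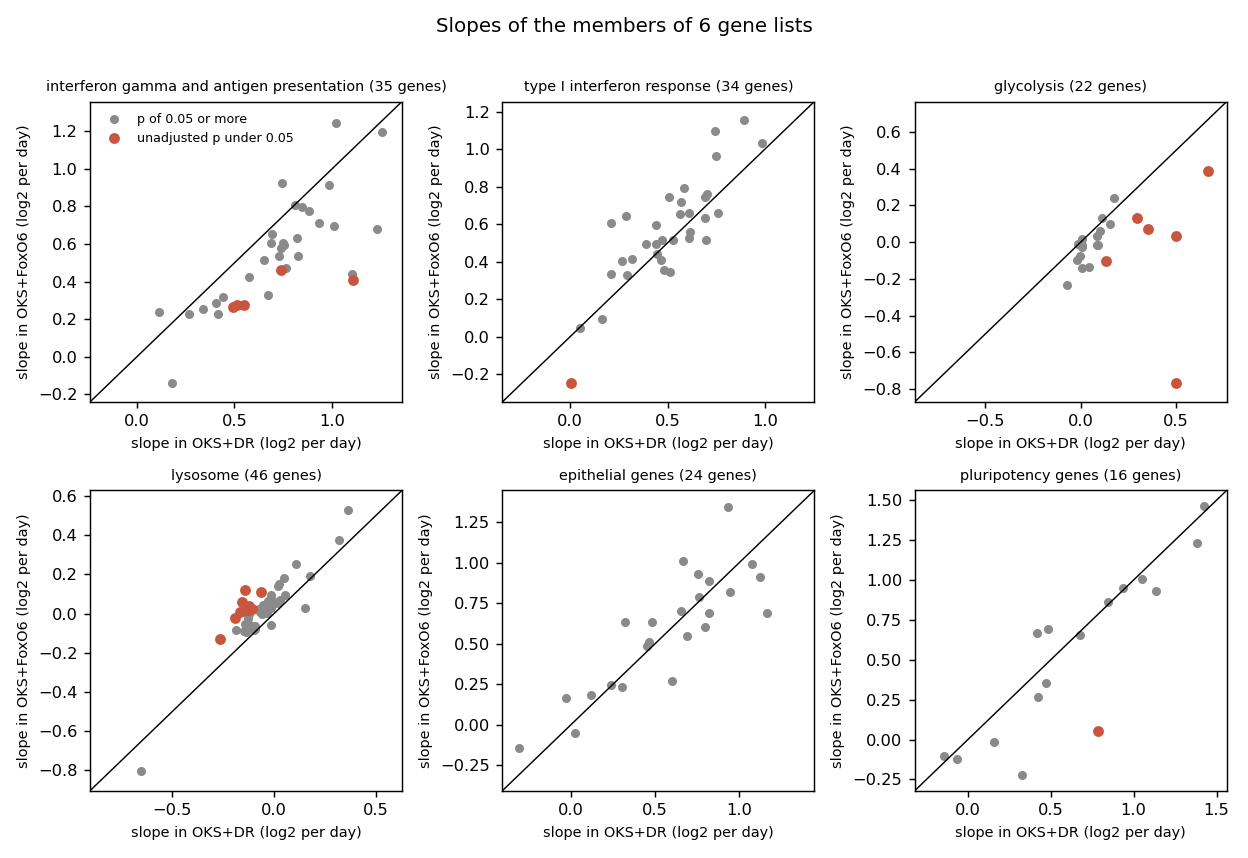
Slope in OKS+DR (x axis) against slope in OKS+FoxO6 (y axis), both in log2 per day, for each tested member of 6 gene lists, with members of an unadjusted p under 0.05 in red and a line of equal slopes. Members of the antigen presentation and glycolysis lists lie mostly below the line, lysosomal members above it (43 of 46), and epithelial members on both sides.

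Many mesenchymal genes fell in both arms. Of 36 members 24 fell in OKS+DR and 17 in OKS+FoxO6, against 6.08% and 4.83% of all genes, with median slopes of -0.319 and -0.2933. A higher slope in OKS+FoxO6 was found for 22 (61.1%), near the 52.1% of all genes. Of these, 4 (Col1a2, Dcn, Mmp2 and Itga5) had an unadjusted p under 0.05, against 4.37% of all genes, and the first 3 passed with the shared day term, against 1.1%. Twist2, a transcription factor of mesenchymal fate, had 78.5, 35.6, 19.5, 13.4 and 2.23 TPM in OKS+DR and 74.4, 31.1, 25.1, 9.07 and 7.93 in OKS+FoxO6. Its slopes were -0.61 ± 0.09 and -0.46 ± 0.082, and the 95% interval of the product term ran from -0.13 to 0.43. The list's median product term, 0.0467, changed sign when the day 0 library of OKS+DR (-0.0796) or the day 7 library of OKS+FoxO6 (-0.0201) was left out.

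Many epithelial genes rose in both arms, and their median level was lower with FoxO6 on every day. Of 24 members 15 rose in each arm, against 5.82% of all genes in OKS+DR and 4.82% in OKS+FoxO6, with median slopes of 0.6584 and 0.6337. A higher slope in OKS+FoxO6 was found for 14 (58.3%), near the 52.1% of all genes. None had an unadjusted p under 0.05 in the product term, against 8.49% of all genes. The p53 target Perp alone passed with the shared day term, as higher, against 1.1% of all genes. Cdh1 codes for E-cadherin, the adhesion protein of epithelia. Its TPM was 3.9, 12.2, 36.7, 106 and 201 in OKS+DR and 0.58, 3.35, 2.55, 14.01 and 28.9 in OKS+FoxO6. Every day was lower with FoxO6, yet the slopes were 0.76 ± 0.054 and 0.93 ± 0.072, and the difference of 0.17 had a 95% interval of -0.045 to 0.39. On log2(TPM + 1), a scale that shrinks low values, the difference was -0.188. Epcam, an epithelial adhesion molecule, had 0, 1.34, 18.7, 103 and 227 TPM in OKS+DR and 0, 3.69, 3.11, 23.5 and 59.3 in OKS+FoxO6, with slopes of 1.12 and 0.91 and an interval of -0.71 to 0.29. Neither interval shows that the slopes were alike. The list's median product term was 0.0329, above 0, although its median slope was lower in OKS+FoxO6. That median kept its sign in 18 of 25 alternatives and was -0.1733 in limma on log2(TPM + 1) and -0.0568, -0.0295 and -0.0018 without OKS+DR day 7, OKS+DR day 3 and OKS+FoxO6 day 0.

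Among pluripotency genes the summed TPM at day 7 was 1019 in OKS+DR and 338 in OKS+FoxO6. Of 28 genes 16 had enough reads, and 10 rose in OKS+DR and 8 in OKS+FoxO6, against 5.82% and 4.82% of all genes. A higher slope in OKS+FoxO6 was found for 6 (37.5%), against 52.1% of all genes. L1td1 was the member that passed with the shared day term, as higher, against 1.1% of all genes. The median product term was -0.0525, below 0, although the median slope was 0.5806 in OKS+DR and 0.6596 in OKS+FoxO6. It turned to 0.0893 without the OKS+FoxO6 library of day 7 and was -0.2334 without that of OKS+DR, and leaving out OKS+DR day 5 or OKS+FoxO6 day 0 or 5 gave -0.1107, -0.0891 and -0.0824. Nanog, a core factor of the network, had 0, 0, 0.71, 14.9 and 58.4 TPM in OKS+DR and 0, 0, 0, 1.02 and 8.31 in OKS+FoxO6, from at most 2 reads before day 7 in OKS+FoxO6, and its slopes of 1.43 and 1.46 depend on how zero counts are treated. Sall4, a zinc finger factor, had 0, 0.53, 1.37, 16.8 and 41.3 TPM and 0, 1.1, 1.45, 11.8 and 16.1 TPM. Zfp42, the marker Rex1, had 0, 0.78, 4, 17.4 and 39.3 TPM and 0, 0, 1.22, 9.97 and 12.6 TPM. Trim71 was the member with an unadjusted p under 0.05, as lower, against 4.12% of all genes, with slopes of 0.78 and 0.052. Esrrb and Dppa5a did not pass the filter, with 84 and 68 reads at day 7 in OKS+DR and 8 and 5 in OKS+FoxO6. Pou5f1, which includes the Oct4 transgene, had product term 0.082 with an interval of -0.043 to 0.21. Hdac9, a class IIa histone deacetylase, and Dusp5, a phosphatase of ERK, had intervals of -0.52 to 0.73 and -0.46 to 0.23.

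Known stress targets of FoxO factors had a higher median level with FoxO6 on every day, and mostly lower slopes. The median log2(TPM + 1) was 4.132 in OKS+DR and 5.005 in OKS+FoxO6 at day 0, and 5.183 and 5.678 at day 7. Of 21 tested members 7 (33.3%) had a higher slope in OKS+FoxO6, against 52.1% of all genes, and 3 had an unadjusted p under 0.05, all lower, against 4.12% of all genes. The median product term of -0.1043 was -0.0159 without the OKS+FoxO6 library of day 7, -0.026 without OKS+DR day 0, -0.1699 without OKS+FoxO6 day 0 and -0.2109 without OKS+DR day 7. Txnip, an inhibitor of thioredoxin and of glucose uptake, had 45.6, 67.6, 136, 211 and 239 TPM in OKS+DR and 87.1, 94, 143, 187 and 126 in OKS+FoxO6, so FoxO6 began higher and the control overtook it from day 5 on. It passed with the shared day term. Bnip3 and Bcl2l11, genes of mitophagy and of cell death, had slopes of 0.52 and 0.20 in OKS+DR and 0.16 and -0.04 in OKS+FoxO6. The forkhead letters GTAAACA, on either strand, were in 3 of the 19 windows of this list (15.8%) and in 2.26% of all 9104. The list of CDK inhibitors and p53 targets had a like share, 3 of 20 windows (15%). With the shared day term, 2 of 51 windows of lost genes (3.92%) and 1 of 20 of shallower genes held them. No window of the reversed, steeper or gained genes did. The window of Txnip, chr3:96557707-96558006 on the plus strand, is printed because it holds this match, in capitals.
Txnip: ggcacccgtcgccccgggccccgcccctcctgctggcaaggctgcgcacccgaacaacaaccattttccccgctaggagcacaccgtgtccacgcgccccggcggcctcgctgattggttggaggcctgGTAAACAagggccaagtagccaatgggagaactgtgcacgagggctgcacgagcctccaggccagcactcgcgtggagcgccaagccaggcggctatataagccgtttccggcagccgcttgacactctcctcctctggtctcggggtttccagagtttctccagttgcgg

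**Figure D5:**
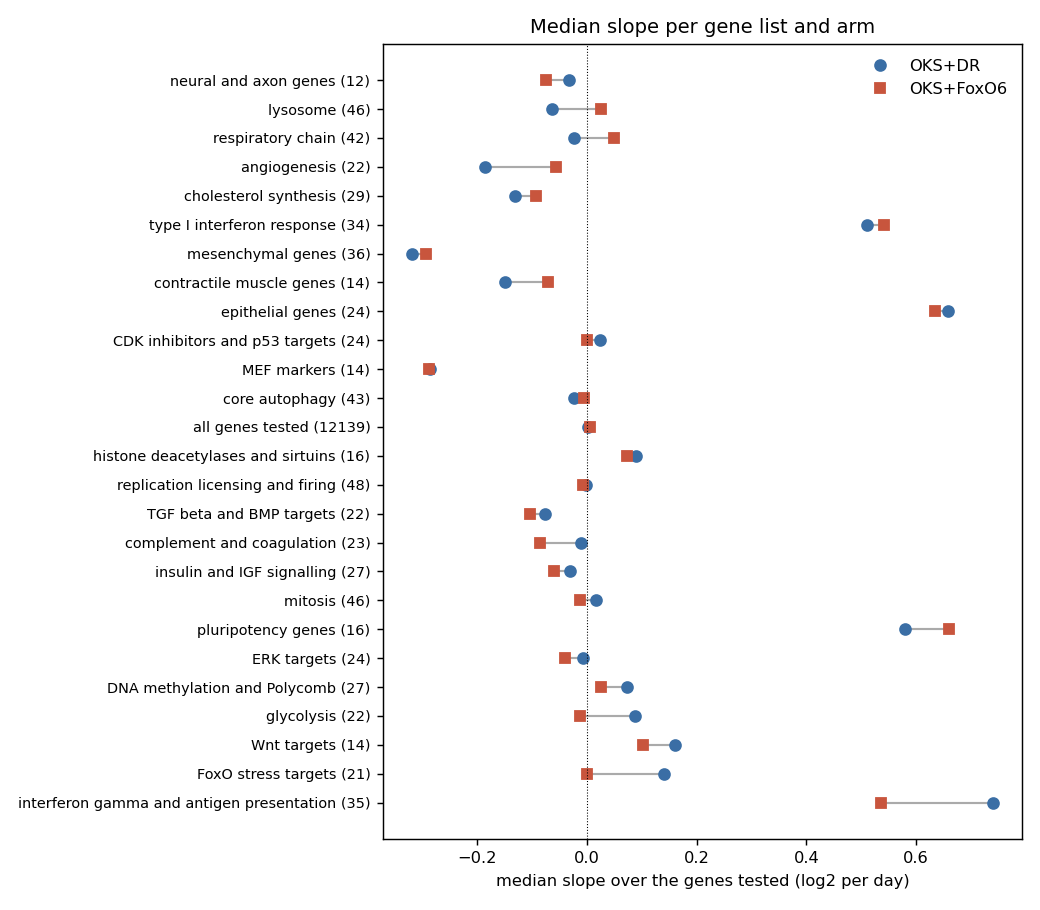
Median slope over tested members (log2 per day, x axis) of 25 gene lists with at least 10 tested members and of all genes, in OKS+DR (circles) and OKS+FoxO6 (squares), ordered by median product term with the number of genes in brackets. The arms are farthest apart for the antigen presentation list (0.7409 against 0.5361) and nearly coincide for MEF markers.

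Other lists are given by their counts, to be read against the 52.1% of all genes that had a higher slope in OKS+FoxO6. ERK targets had 6 of 24 members with a higher slope and a median product term of -0.0632, which was -0.02 without day 0 of both arms. Among them Egr1, an immediate early factor, had slopes of -0.045 and -0.35. Wnt targets had 3 of 14 higher and a median of -0.0903, which was -0.1669 without OKS+DR day 7 and -0.1367 without OKS+FoxO6 day 7. DNA methylation and Polycomb genes had 7 of 27 higher, among them neither Dnmt3b (-0.48) nor Suz12 (-0.14), a de novo methyltransferase and a Polycomb subunit. The list's median of -0.064 was -0.0114 without OKS+FoxO6 day 7, with 11 higher, and -0.0372 without OKS+DR day 0. Cholesterol synthesis genes had 22 of 29 higher with a median of 0.055, which was -0.0383 without the OKS+DR library of day 0. Replication genes had 22 of 48 higher, with a median of -0.0101, and mitotic genes 17 of 46, with -0.0368, and both medians changed sign when the OKS+FoxO6 library of day 1 was left out (0.0123 and 0.0211). The replication median also turned without OKS+DR day 1 (0.0052) or day 5 (0.0062), and the mitotic median without OKS+DR day 0 (0.0044). Insulin and IGF signalling genes had 10 of 27 higher with a median of -0.0328, which turned with the length offset to 16 higher and 0.0136, their median length being 4906 bases. With no offset, the median was -0.0016 without OKS+DR day 0 and -0.0104 without OKS+FoxO6 day 7. Of the members, Igf2 and Igfbp7 passed as higher with the shared day term, against 1.1% of all genes, and Igfbp2 and Igfbp5 as lower, against 0.643%.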

How the data were processed

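The authors aligned reads with RSEM and Bowtie2 to the GENCODE M13 transcriptome (mm10) and deposited an expected count per gene, not normalised, and TPM, scaled to the same sum in every library. The methods name a TruSeq kit for the libraries and the labels a VAHTS kit. Expected counts were rounded, and symbols altered by a spreadsheet (25) were restored. edgeR 4.0.16 in R 4.3.3 was used with TMM factors, filterByExpr, and arm, day as a number and their product as terms, on all 10 libraries. The product term was tested with the quasi-likelihood test and Benjamini-Hochberg adjustment over 12139 genes at 0.05. SEs and 95% intervals were derived from the F statistic, and slopes of genes with zero counts are shrunken. Alternatives used DESeq2 1.42.0, limma 3.58.1, other filters, a shared day term, a length offset, thinning to 1206363 counts and libraries left out. The scripts were tested on simulated data. Coordinates are from GENCODE M21 (GRCm38).

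Named genes were the 10 smallest p-values in each direction, members of 29 gene lists (774 genes) with an unadjusted p under 0.05, genes named in the study's text, and, from the shared day term, the 4 smallest p-values per class and direction and list members that passed. Not every gene that this rule names is reported here. The comparison and the lists were chosen with earlier results of these data known. Promoter windows were the first listed per symbol and matched 9104 of the 12139 genes (75%). Totals of 1208379 to 2225750 counts mean that genes near 1 TPM rest on a few reads. Fold changes or tests made by the authors were not used.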

Additional observations from a re-analysis of the deposited data

Results flagged for a closer look

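With a day term shared by both arms, the slope differed between OKS+FoxO6 and OKS+DR at an adjusted p under 0.05 (edgeR's quasi-likelihood test) in 212 of 12139 genes, a difference between groups that straight lines alone did not give (0 genes). The count rests on 3 residual degrees of freedom and 1 library per arm and day. In the straight-line fit 163 of the 212 had an unadjusted p under 0.05 and the same sign, and DESeq2's 29 genes were all among the 212. When every library was thinned to the same total, 240 genes passed with the shared day term, 193 of them among the 212. Groups of single libraries could not be searched for outlying samples.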

How the results depend on the processing

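The straight-line product term passed 0 genes in 20 of 25 alternatives. Without a filter on low counts it passed 6 genes, 3 higher (Emb, Scg5 and Gm20388) and 3 lower (Cmah, D10Wsu102e and Noct), of which 2 were lost, 3 reversed and 1 shallower. DESeq2 passed 29, 15 higher and 14 lower, with 14 lost, 6 reversed, 6 shallower and 3 gained. Leaving out a library or a day gave 0 to 1 gene, the 1 gene being lower and lost or shallower, without OKS+DR day 0, OKS+DR day 1 or day 1 of both arms. The shared day term passed 212, 134 higher and 78 lower, with 71 lost, 48 reversed, 22 steeper, 31 shallower and 37 gained. Its own 13 alternatives, chosen after seeing the data, ran from 91 to 628 genes. Without a filter it passed 628, 319 higher and 309 lower, and with robust squeezing 328, 137 of them lower. Leaving out a day gave 91 to 264 genes, 52 to 125 higher (84 without day 1 and 88 without day 3) and 31 to 139 lower (39 without day 7). The lost class then held 17 to 85 genes, the reversed class 22 to 53 and the steeper class 2 to 27. Without day 7 there were 91 and without day 0 there were 123. With limma on log2(TPM + 1) 635 genes had a slope in OKS+FoxO6. Leaving out libraries or days gave 507 to 1535 genes with a slope in OKS+DR and 175 to 1536 in OKS+FoxO6.

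Signs turned for some named genes, and the cause was not tested. Nanog had a product term of -0.148 with log2(day + 1), -0.283 in DESeq2, -0.468 in limma on log2(TPM + 1) and -0.00052 with the length offset. Zfp42 had -0.159 in limma, -0.0272 with the length offset and -0.0472 after thinning. In limma on log2(TPM + 1), Cdh1 had -0.188 and Tgtp1 -0.0408, and with the shared day term in limma's trend method Tgtp1 had -0.00539. Leaving out a library or day moved the product term across 0 for these genes: Tgtp1 from -0.549 to 1.04, Oasl2 from -0.313 to 0.764, Oas3 from -0.387 to 1.15, Egr1 from -0.403 to 0.00485, Acta1 from -0.115 to 1.35, Sall4 from -0.69 to 0.238, Twist2 from -0.0181 to 0.284, Nanog from -0.582 to 0.23, Dusp5 from -0.304 to 0.168, Hdac9 from -0.239 to 0.42, Epcam from -0.575 to 0.072, Foxo6 from -0.271 to 0.0425 and Zfp42 from -0.196 to 0.552. With the shared day term Acta1 had -0.0467 without day 7. The shared day term pairs the arms by day and is the paired fit (212 genes), and the samples carry no replicate numbers for another pairing. Depth limits genes with few reads, whose slopes are shrunken.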
